A study of Mus musculus with 8 samples.

Results

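The fibroblast growth factor (FGF) ligands and receptors of fat were followed as 9 named genes: the ligands Fgf1, Fgf2, Fgf7 and Fgf10, the receptors Fgfr1, Fgfr2 and Fgfr3, the kinase-less receptor Fgfrl1, and the co-receptor Klb. They were chosen by gene family and by role in fat, though with earlier results of these data known. Each was matched to 1 Ensembl identifier among the 34866 genes of the table. All 9 were abundant enough to be among the 12480 genes tested.

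The tissue was epididymal white fat, a visceral depot, of male mice. The 4 control samples carry a floxed aromatase gene (genotype Aromatase flox/flox). The 4 knockout samples carry the same floxed alleles plus aP2-Cre, in which the Fabp4 (aP2) promoter, active in adipocytes and also in some macrophages, expresses Cre recombinase. Both groups are therefore homozygous for the floxed allele, and animals with aP2-Cre alone were not analysed here. Effects of Cre itself and of the aromatase deletion cannot be told apart. The study asked which genes downstream of aromatase in fat bear on phosphorus metabolism. Nothing in the labels says that the samples are from separate animals, so p-values measure the spread between these samples only.

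FGFs signal through receptor tyrosine kinases together with heparan sulfate, or, for the hormone-like FGFs, together with a klotho protein. Fgfr1 paired with Klb (beta-klotho) is the receptor complex for FGF21, a hormone that acts on adipocytes, and Kl (alpha-klotho) serves FGF23, the bone hormone that lowers blood phosphate. Fgf7 and Fgf10 are made by mesenchymal cells and act through the epithelial splice form of Fgfr2. Fgf10 is needed for the growth of white fat, and Fgf1 is a PPARgamma target that allows fat to remodel during feeding.

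Aromatase makes oestrogens, whose receptors bind DNA at pairs of the half-site GGTCA, so the promoters of the members were read for it. RefSeq windows of 300 bases on GRCm38.p6, from 250 before to 50 after a transcription start, were matched for 7 of the 9 members by symbol, 8 windows in all. GGTCA on either strand was in 4 of the 8 windows, against 40.5% of the 32851 windows of all genes. The paired site GGTCANNNTGACC, which contains the half-site on each strand, was in 0 of the 8 and in 0.07% of all windows. Both searches only describe these letters in these windows.

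The 3 promoters of ligand and co-receptor genes with the half-site are shown, with GGTCA or its reverse complement in capitals and the rest in lower case, 5′ to 3′ on the plus strand, which is the strand of all 3 genes. The window of Fgf7 is chr2:126034408-126034707, that of Fgf10 chr13:118714449-118714748 and that of Klb chr5:65348161-65348460.
Fgf7: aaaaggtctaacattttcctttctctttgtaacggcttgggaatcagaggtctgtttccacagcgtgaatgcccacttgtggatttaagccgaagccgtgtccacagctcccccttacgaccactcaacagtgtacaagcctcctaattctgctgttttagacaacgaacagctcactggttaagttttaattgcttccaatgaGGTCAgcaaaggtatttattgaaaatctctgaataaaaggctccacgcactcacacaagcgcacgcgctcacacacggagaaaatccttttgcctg
Fgf10: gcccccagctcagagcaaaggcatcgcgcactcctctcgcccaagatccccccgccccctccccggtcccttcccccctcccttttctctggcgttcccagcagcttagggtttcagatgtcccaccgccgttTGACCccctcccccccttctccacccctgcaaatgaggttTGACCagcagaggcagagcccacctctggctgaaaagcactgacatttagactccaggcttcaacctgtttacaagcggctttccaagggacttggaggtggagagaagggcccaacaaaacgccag
Klb: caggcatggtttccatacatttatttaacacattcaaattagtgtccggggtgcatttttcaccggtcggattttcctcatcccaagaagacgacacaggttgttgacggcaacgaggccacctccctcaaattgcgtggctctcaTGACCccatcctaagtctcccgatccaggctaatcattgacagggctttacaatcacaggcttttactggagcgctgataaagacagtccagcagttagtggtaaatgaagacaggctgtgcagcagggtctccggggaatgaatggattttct
The Fgf10 window holds 2 matches and the others 1 each. GC content was 45.7% for Fgf7, 60.7% for Fgf10 and 48.3% for Klb, against a median of 52.7% over all windows.

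No member passed the test between the genotypes: 0 of 9 passed an adjusted p of 0.05 and 0 of 9 had an unadjusted p under 0.05 in edgeR's quasi-likelihood test. Over all tested genes, 0.168% passed the adjusted and 6.39% the unadjusted threshold. In the knockout libraries 4 members were higher and 5 lower, with a median log2 fold change of -0.02 against -0.001 over all tested genes, of which 49.7% were higher. The adjusted p-values of the members ran from 0.91 to 0.999. In 0 of 9 members did the control and knockout libraries separate without overlap, which 4.23% of tested genes did.

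The precision differed between members. The 95% interval of the fold change stayed within 2-fold in either direction for 8 of the 9 members and within 1.5-fold for 3, Fgf1, Fgfr1 and Fgfrl1. Fgf7 was the exception to the 2-fold bound, with an interval of 0.319 to 1.28-fold. Differences within these intervals are not excluded with this number of libraries, the spread between them and this depth. In bulk tissue, fewer cells of a type and less RNA per cell cannot be told apart. Levels are in CPM, counts scaled to a common library size after TMM (a trimmed mean of ratios between libraries). They are not divided by gene length, and no order of level between genes is drawn.

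**Figure D1:**
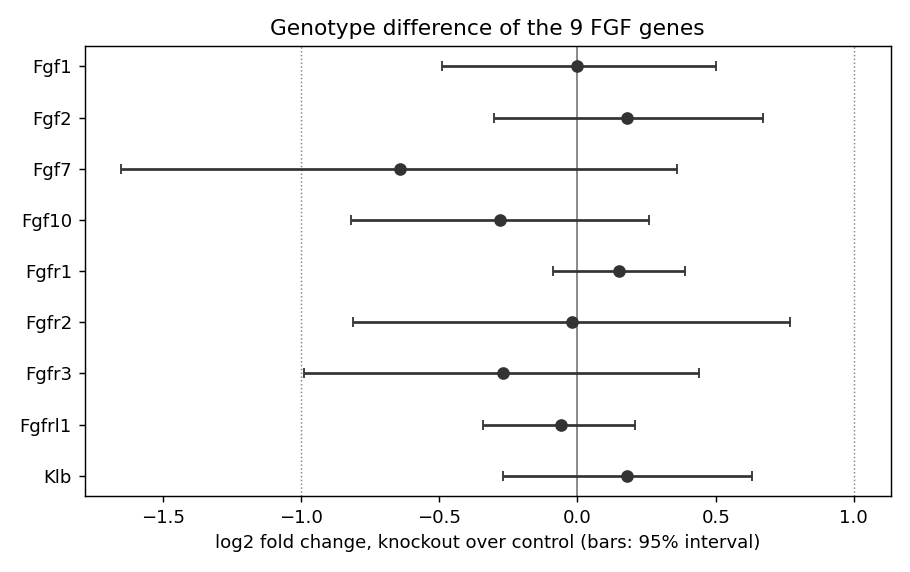
Log2 fold change of each of the 9 genes, knockout over control (points), with the 95% interval of the edgeR fit (bars, 4 libraries per group). The dotted lines mark 2-fold in either direction. Each interval includes 0, and only that of Fgf7, down to -1.65, crosses a dotted line.

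Among the ligands, Fgf10 (chromosome 13, 118669791 to 118792115) was at 84.6, 58.3, 55.6 and 54.5 CPM in controls 1 to 4 and at 70.6, 66.3, 41.2 and 33.2 CPM in knockouts 1 to 4. The 2 lowest libraries were knockout replicates 3 and 4, but the other 2 knockout libraries lay above 3 of the 4 controls. The means were 63.2 ± 14.3 and 52.8 ± 18.4 CPM (SD, n = 4), or a log2 fold change of -0.28 with an SE of 0.25 (edgeR adjusted p = 0.925). Without control replicate 1, the highest library, the log2 fold change was -0.10, and without knockout replicate 4, the lowest, it was -0.11.

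Fgf1 (chromosome 18, 38838673 to 38929472) was at 29.8, 51.0, 40.7 and 45.2 CPM in controls 1 to 4 and at 35.7, 26.2, 50.1 and 53.8 CPM in knockouts 1 to 4. High and low libraries occurred in both groups, whose means were 41.7 ± 8.98 and 41.5 ± 12.8 CPM (SD, n = 4). The 95% interval of its fold change was 0.712 to 1.41 (edgeR adjusted p = 0.999).

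The summed level of 10 adipocyte markers, of which Fabp4 and Cfd made up 68.6 to 76.8% in each library, also varied between libraries. It summed to 50579, 38133, 43538 and 37768 CPM in controls 1 to 4 and to 47562, 41442, 30314 and 32847 CPM in knockouts 1 to 4. The ranges overlapped, all 10 markers were above 0 in all 8 libraries, and 8 of the 10 were lower and 2 higher in the knockout fit, 0 of them past the adjusted threshold. Knockout replicates 3 and 4, the lowest in the adipocyte sum, were the lowest for Fgf10 and among the 3 highest for Fgf1. The markers did not move as one in knockout replicate 4: its Cfd, 5500 CPM, was the lowest of the 8 libraries, while its Lep, 1490 CPM, was the highest and its Cidec, 1920 CPM, the second highest. Summed without Fabp4 and Cfd, a choice made after these values were seen, the other 8 markers were lowest in knockout replicate 3, at 8203 CPM, and next in control replicate 4, at 8777 CPM, and knockout replicate 4 lay above knockout replicate 2. Of 12 stromal progenitor and fibroblast markers, the sum was lowest in control replicate 1 (3526 CPM) and highest in knockout replicate 4 (4743 CPM). For Fgf10 these were highest and lowest, but its next lowest, knockout replicate 3, had a sum of 3929 CPM. Of 7 smooth muscle and pericyte markers, it was lowest in knockout replicate 2 (480.2 CPM) and highest in knockout replicate 4 (650.4 CPM). So was Fgf1, but its next lowest library, control replicate 1, had a sum of 600.9 CPM. The part of these cell shares in Fgf10 or Fgf1 was not tested. Over the 8 libraries the log2 CPM of Fgf1 and Fgf10 had a Pearson r of -0.79, the lowest of the 36 pairs of members. This is a description of 8 libraries that share their depth and tissue makeup with both genes.

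**Figure D2:**
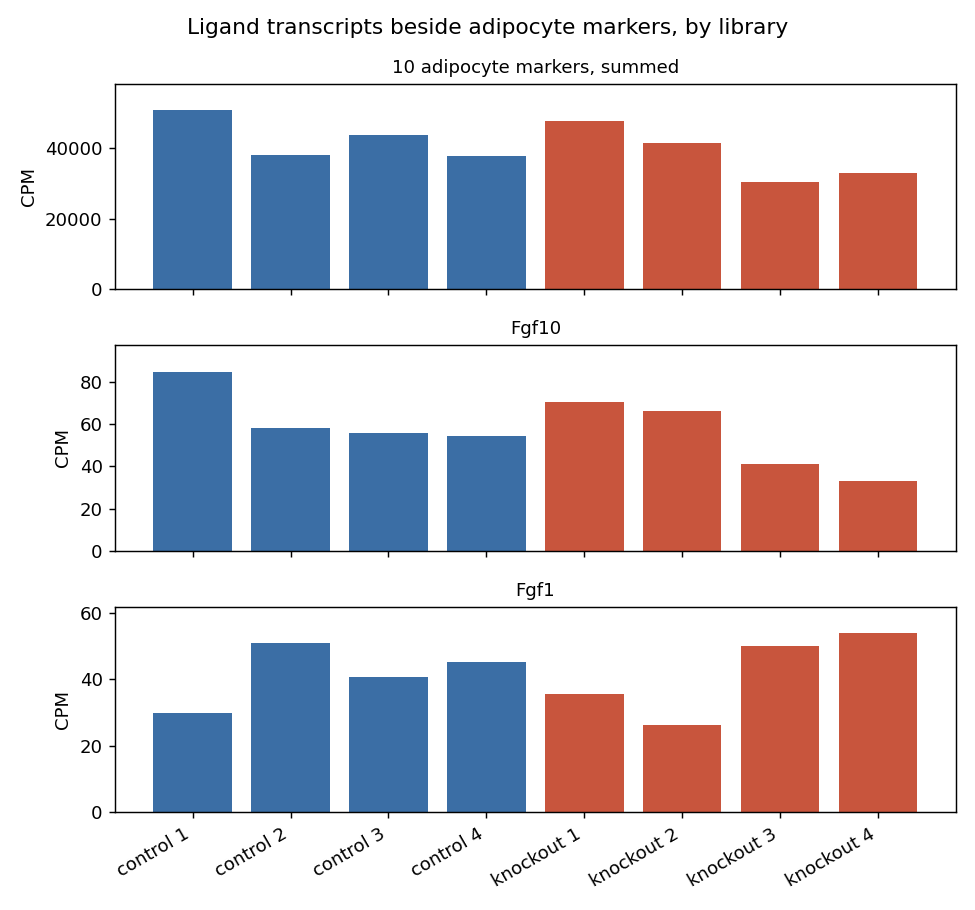
CPM by library (bars; control blue, knockout red) of the summed 10 adipocyte markers, of Fgf10 and of Fgf1. Knockout replicates 3 and 4 are lowest in the marker sum (30314 and 32847 CPM), most of which is Fabp4 and Cfd, and in Fgf10 (41.2 and 33.2 CPM), while in Fgf1 they reach 50.1 and 53.8 CPM. Without Fabp4 and Cfd, knockout replicate 4 is not among the 2 lowest in the sum.

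Fgf2 (chromosome 3, 37348346 to 37410108), a ligand without a classical secretion signal, was at 41.4, 32.5, 21.7 and 31.1 CPM in controls 1 to 4 and at 35.5, 23.3, 46.3 and 38.9 CPM in knockouts 1 to 4. The groups overlapped, with means of 31.7 ± 8.08 and 36.0 ± 9.62 CPM (SD, n = 4), or a log2 fold change of 0.18 with an SE of 0.23 (edgeR adjusted p = 0.943). In the GENCODE M21 annotation of GRCm38, 2 exons of Fgf2 overlap the antisense gene Nudt6 and 5 overlap the transcript Gm43439 on the same strand. The labels do not say whether counting used strand, so reads of Fgf2 and Nudt6 may not have been told apart. The same holds for Fgf10 with Gm16263, Fgfr1 with Gm16159 and Fgfr3 with G630022F23Rik, each annotated on the opposite strand across exons of the member. Unlike Nudt6, none of these antisense genes reaches the annotated 3′ end of its member.

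Fgf7 (chromosome 2, 126034658 to 126091185), also called keratinocyte growth factor, rested on 4 to 16 estimated counts per library. It was at 5.60, 4.60, 4.49 and 5.13 CPM in controls 1 to 4 and at 5.95, 2.03, 1.55 and 3.28 CPM in knockouts 1 to 4. Knockout replicates 2 to 4 lay below every control library, and knockout replicate 1 above all of them. The means were 4.95 ± 0.514 and 3.20 ± 1.97 CPM (SD, n = 4), or a log2 fold change of -0.64 with an SE of 0.47 (edgeR unadjusted p = 0.19, adjusted p = 0.91). Without knockout replicate 1 the log2 fold change was -1.08 and the unadjusted p 0.0534, with an adjusted p of 0.862.

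**Figure D3:**
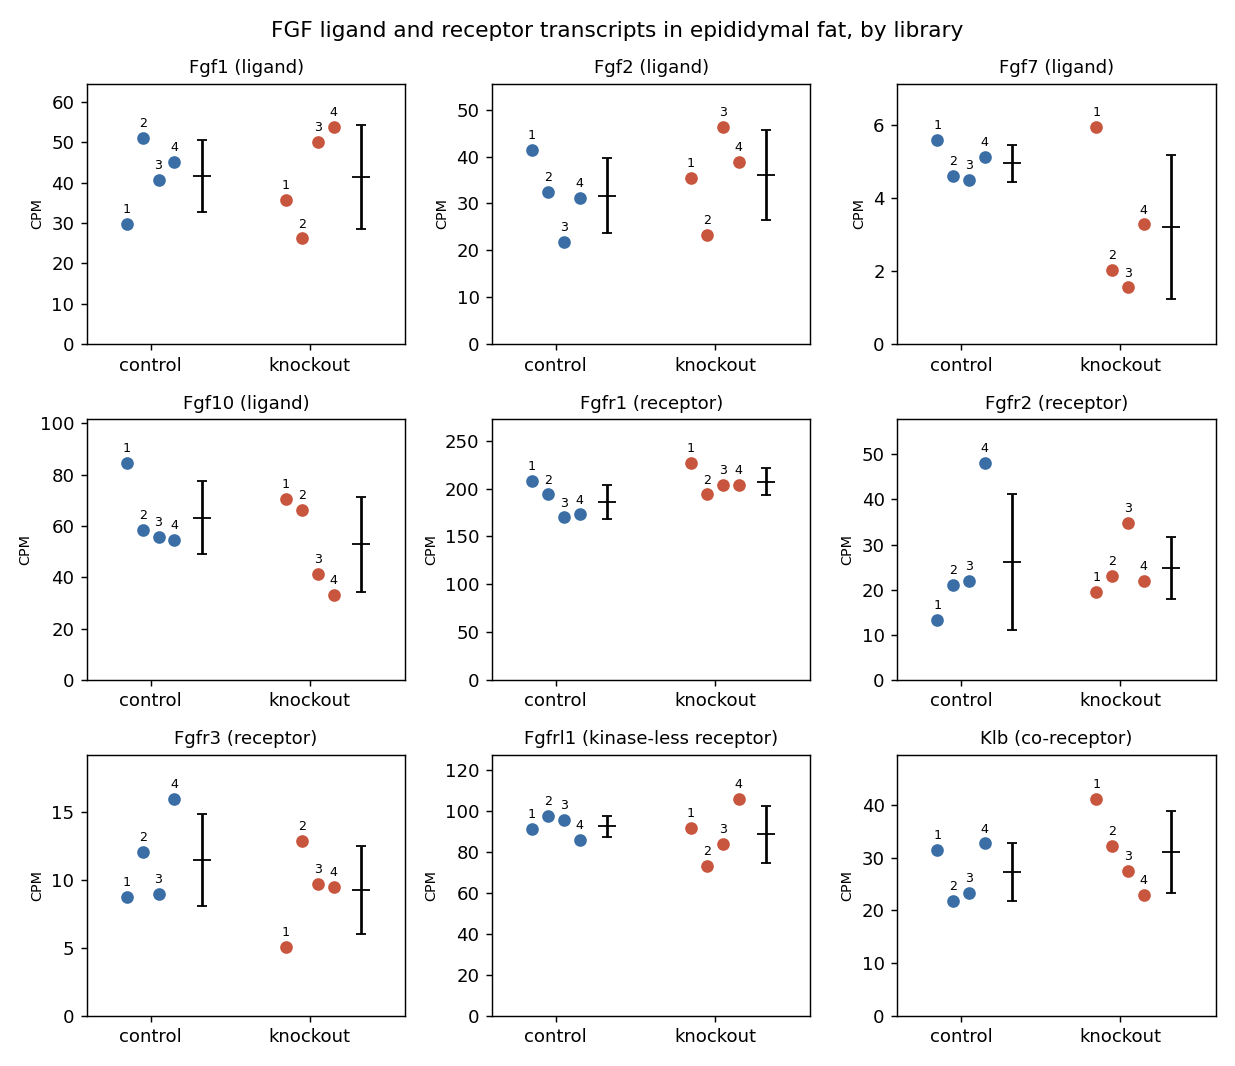
CPM of the 9 members in each library (dots, numbered by replicate; control blue, knockout red), with the mean and SD of each group (black). The groups overlap in every panel. Fgfr2 has control replicate 4 at 48.1 CPM above 13.3 to 22.0 CPM in the other controls.

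Among the receptors, Fgfr1 (chromosome 8, 25513654 to 25575718), the receptor that adipocytes use for FGF1 and FGF21, had the smallest SE of the 9. It was at 208, 194, 170 and 173 CPM in controls 1 to 4 and at 227, 194, 204 and 204 CPM in knockouts 1 to 4. The means were 186 ± 18 and 207 ± 13.9 CPM (SD, n = 4), or a log2 fold change of 0.15 with an SE of 0.11 (edgeR unadjusted p = 0.193, adjusted p = 0.912). The fold change was 1.11 with a 95% interval of 0.943 to 1.31. With each library left out in turn, the log2 fold change stayed between 0.106 and 0.21.

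Klb (chromosome 5, 65348314 to 65384007), the co-receptor that gives FGF21 its target cells, was at 31.4, 21.8, 23.3 and 32.7 CPM in controls 1 to 4 and at 41.2, 32.3, 27.5 and 23.0 CPM in knockouts 1 to 4. Only knockout replicate 1 was above all controls. The means were 27.3 ± 5.56 and 31 ± 7.80 CPM (SD, n = 4), or a fold change of 1.13 with a 95% interval of 0.829 to 1.55 (edgeR adjusted p = 0.942). Without knockout replicate 1 the log2 fold change went from 0.18 to 0.02.

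Fgfrl1 (chromosome 5, 108692382 to 108706924), which binds FGFs but lacks the tyrosine kinase domain, was at 91.2, 97.5, 95.5 and 85.9 CPM in controls 1 to 4 and at 91.6, 73.0, 83.8 and 106 CPM in knockouts 1 to 4. The knockout libraries spread on both sides of the controls. The means were 92.5 ± 5.14 and 88.6 ± 13.8 CPM (SD, n = 4), or a fold change of 0.957 with a 95% interval of 0.792 to 1.16 (edgeR adjusted p = 0.972).

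Fgfr2 (chromosome 7, 130162451 to 133123350) had the widest spread among the controls of any member, 3.62-fold. It was at 13.3, 21.1, 22.0 and 48.1 CPM in controls 1 to 4 and at 19.4, 23.0, 34.8 and 22.0 CPM in knockouts 1 to 4. The highest value was in control replicate 4 and the next in knockout replicate 3, so the groups overlapped fully. The means were 26.1 ± 15.2 and 24.8 ± 6.83 CPM (SD, n = 4), or a log2 fold change of -0.02 with an SE of 0.36 (edgeR adjusted p = 0.998). Its sign was not stable: the log2 fold change was 0.42 without control replicate 4 (edgeR unadjusted p = 0.124), and 0.08, 0.01 and 0.04 without knockout replicates 1, 2 and 4. The gene lies on the minus strand, and its annotation reaches into Ctbp2 on the side of the transcription start. Fgfr2 shares 285 of its 10586 words of 31 bases with Ctbp2.

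Fgfr3 (chromosome 5, 33721674 to 33737068) was at 8.73, 12.1, 8.97 and 16 CPM in controls 1 to 4 and at 5.04, 12.9, 9.70 and 9.51 CPM in knockouts 1 to 4. Its highest library was also control replicate 4. The means were 11.5 ± 3.41 and 9.29 ± 3.24 CPM (SD, n = 4), or a log2 fold change of -0.27 with an SE of 0.33 (edgeR adjusted p = 0.943). Without control replicate 4 it was -0.09, without knockout replicate 1 it was -0.08, and without knockout replicate 2 it was -0.47. Fgfr4 (chromosome 13), the remaining FGF receptor with a kinase, was at 16.7 CPM in control replicate 4 and 4.93 to 6.69 CPM in the other controls. In knockout replicates 1 to 4 Fgfr4 was at 2.29, 6.05, 11.6 and 3.61 CPM (log2 fold change -0.46, edgeR adjusted p = 0.942), and without control replicate 4 the log2 fold change was 0.04.

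Epithelial markers varied in the same libraries. Among the mesothelial markers, Krt8, Krt18, Krt19 and Wt1 were highest in control replicate 4, at 160, 80.8, 46.2 and 21.8 CPM, whereas Msln, Upk1b, Upk3b and Lrrn4 were highest in other libraries. A list of 8 epithelial genes (Epcam, Cdh1, Cldn3, Cldn7, Krt8, Krt18, Spint2 and Elf3) was then added after these values were seen. Its sum was 121.6, 286.3, 270 and 562.9 CPM in controls 1 to 4 and 107.6, 245.3, 390.2 and 130.2 CPM in knockouts 1 to 4. Each of the 8 genes was above 0 in all libraries, highest in control replicate 4 and next highest in knockout replicate 3, as Fgfr2 and Fgfr4 were, and all 8 were lower in the knockout fit, 0 past the adjusted threshold. Of 10 markers of epididymal and male tract epithelium, 6 were at 0 in every library (Crisp1, Defb12, Lcn5, Lcn8, Lcn9 and Pate4), and the sum of the 10 ranged from 1.6 to 4.6 CPM over the controls and from 2.6 to 12.3 CPM over the knockouts. Control replicate 4 was also the shallowest library, at 1538427 estimated counts, and its endothelial marker sum was 565.1 CPM against 814.1 to 1005 CPM in the other controls. The part of these in the receptor values was not tested.

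**Figure D4:**
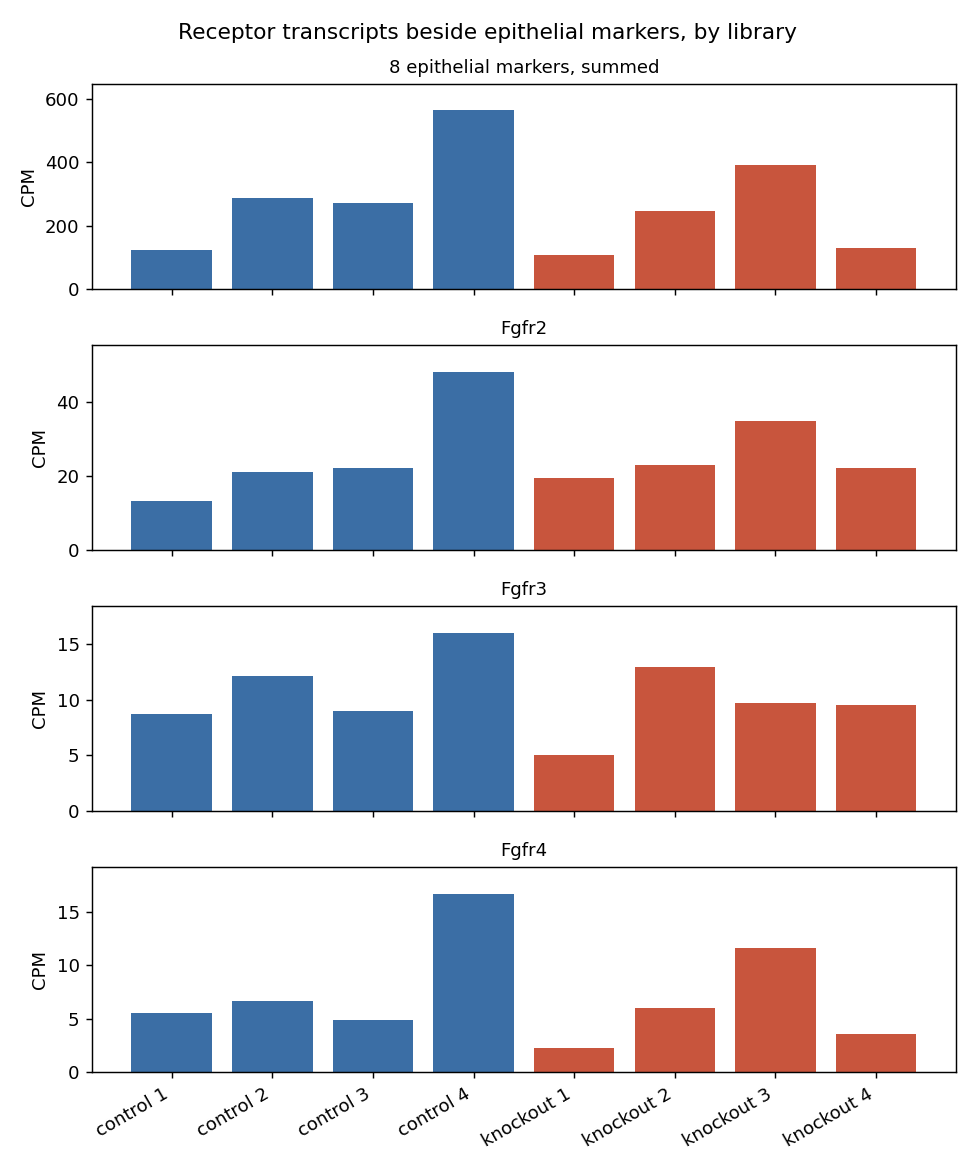
CPM by library (bars; control blue, knockout red) of 8 epithelial markers, summed, and of Fgfr2, Fgfr3 and Fgfr4. In the sum, Fgfr2 and Fgfr4, control replicate 4 is highest (562.9, 48.1 and 16.7 CPM) and knockout replicate 3 next (390.2, 34.8 and 11.6 CPM). In Fgfr3, control replicate 4 is highest at 16 CPM and knockout replicate 3 is at 9.70 CPM.

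The hormone-like FGFs had few counts. Fgf21 had 0, 6, 2 and 0 estimated counts in controls 1 to 4 and 1, 4, 0 and 2 in knockouts 1 to 4. Fgf23 had 1, 0, 0 and 0 in the control and 0, 2, 1 and 1 in the knockout libraries, and neither entered the test. Fgf15, the intestinal hormone of bile acid control, had 0 to 5.41 counts over the controls and 0 to 9.35 over the knockouts, the highest in knockout replicate 4, and did not enter the test either. A count of 0 allows up to 3 counts, which is 0.983 to 1.95 CPM depending on the library, and this floor covers counting error only. Kl (chromosome 5, 150952607 to 150993817) was at 5.71, 10.5, 9.08 and 12.9 CPM in controls 1 to 4 and at 5.64, 13.9, 12.4 and 8.02 CPM in knockouts 1 to 4. Its groups overlapped (log2 fold change 0.09, SE 0.36, edgeR adjusted p = 0.985).

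Of the 14 other ligands of the family, Fgf9 alone was abundant enough to be tested. Its means were 3.17 ± 1.83 (control) and 4.97 ± 1.67 CPM (knockout; SD, n = 4), a log2 fold change of 0.63 (edgeR adjusted p = 0.917). Of the 4 FGF homologous factors, which stay inside the cell, Fgf11 and Fgf13 were tested. Fgf11 had a log2 fold change of -0.29 (edgeR adjusted p = 0.935). Fgf13 had a log2 fold change of 0.41 (edgeR adjusted p = 0.961), which turned to -0.73 without knockout replicate 4. The klotho relative Lctl had a log2 fold change of 0.64 with an SE of 0.58 (edgeR adjusted p = 0.929). With 1 library left out it ranged from 0.218 to 1.331, the highest being without control replicate 3 (edgeR unadjusted p = 0.0378, adjusted p = 0.955).

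Across the 9 lists of other pathway genes, 89 of 115 genes were tested and 0 passed an adjusted p of 0.05 in either direction in edgeR's test. An unadjusted p under 0.05 was found for 4 genes, all higher in the knockout libraries, which is 4.49% of those tested. Over all genes the share was 6.39%, and 3.52% in the upward direction. Over the lists 49 genes were higher and 40 lower, with a median log2 fold change of 0.04. The largest lists were the 24 intracellular transducers (10 higher, 14 lower, median -0.02) and the 21 heparan sulfate genes (16 higher, 5 lower, median 0.06). The 14 feedback inhibitors had a median of 0.14, with 9 higher and 5 lower. The 10 transcription factors and targets induced by FGF and ERK had 5 higher and 5 lower.

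The control and knockout libraries did not overlap in these 4 genes, which were picked by their p. They were the only tested list genes to separate, 4 of 89 higher and 0 lower. Over all tested genes, 2.52% separated upward and 4.23% in either direction. Cd44, a hyaluronan receptor of leukocytes and stroma that can carry heparan sulfate, was at 43.0, 37.2, 34.1 and 23.1 CPM in controls 1 to 4 and at 50.8, 54.9, 48.1 and 53.5 CPM in knockouts 1 to 4. Its log2 fold change was 0.57 with an SE of 0.17 (edgeR unadjusted p = 0.00421, adjusted p = 0.432). Sdc1, a heparan sulfate proteoglycan of the cell surface, was at 10.5, 12.1, 14.4 and 8.33 CPM in controls 1 to 4 and at 14.7, 18.6, 18.2 and 22.3 CPM in knockouts 1 to 4 (log2 fold change 0.70, edgeR adjusted p = 0.603). The nearest libraries were control 1 and knockout 3 for Cd44, and control 3 and knockout 1 for Sdc1.

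Ndst1, an enzyme that begins the sulfation of heparan chains, ranged from 21 to 23.4 CPM over the controls and from 26.9 to 33.7 CPM over the knockouts (log2 fold change 0.47, SE 0.16, edgeR adjusted p = 0.58). Egr2, an immediate early transcription factor, rested on 4 to 20 counts per library. Its means were 2.89 ± 1.01 (control) and 5.49 ± 1.08 CPM (knockout, SD, n = 4). Its log2 fold change was 0.95 (edgeR unadjusted p = 0.0426, adjusted p = 0.756). Beside these 4 genes, the summed level of 10 macrophage markers ranged from 946.9 to 1073 CPM over the controls and from 1433 to 1826 CPM over the knockouts, with no overlap. All 10 of those markers were above 0 in all libraries, 10 were higher in the knockout fit and 3 passed the adjusted threshold. Those 3 were Lyz2, Ctss and Cd68, with fold changes of 1.8, 2.31 and 2.19. Adgre1 and Csf1r also separated without overlap, whereas C1qa, C1qb, C1qc, Cd14 and Mrc1 overlapped between the groups, C1qa at 1.11-fold and C1qc at 1.08-fold. The part of the macrophage share in the 4 values was not tested.

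**Figure D5:**
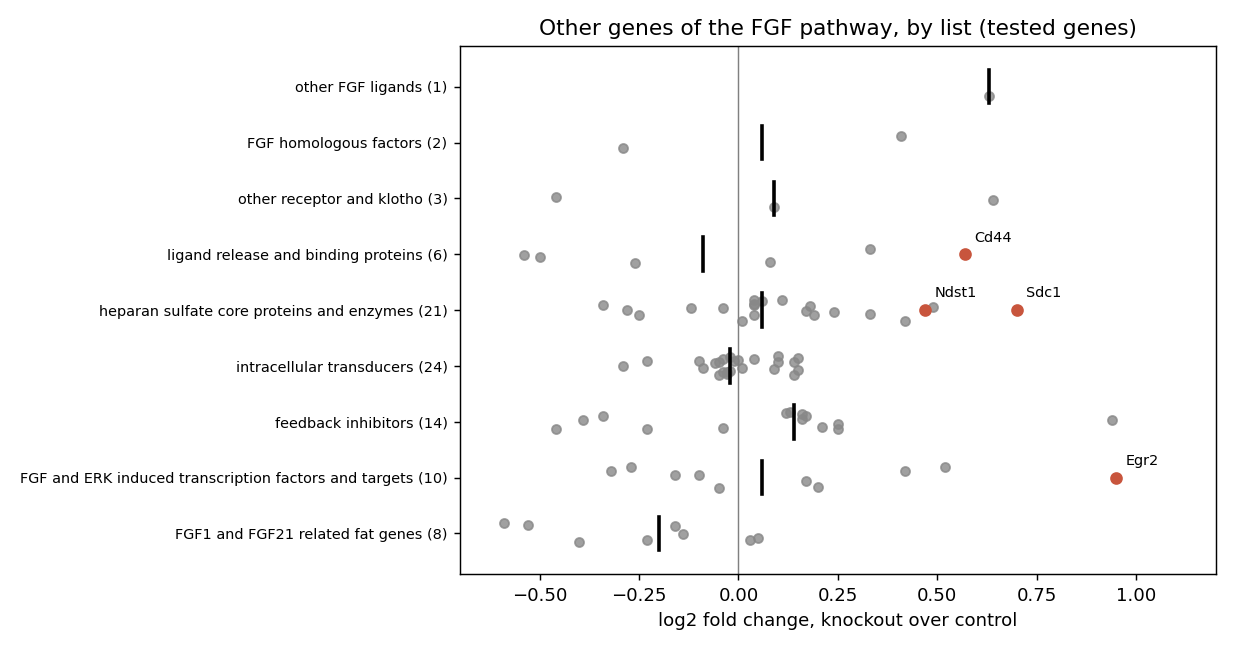
Log2 fold change, knockout over control, of the tested genes of 9 lists (dots; number tested in parentheses) with each list's median (black bar). Red dots mark the 4 genes with an unadjusted p under 0.05, Cd44, Sdc1, Ndst1 and Egr2, all to the right of 0; none passed the adjusted threshold.

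The genes with the smallest p in the remaining lists did not pass either. Pparg, the master transcription factor of adipocytes and a regulator of Fgf1, had a log2 fold change of -0.23 with an SE of 0.11 (edgeR adjusted p = 0.802), and Slc2a1, a glucose transporter, one of -0.53 (edgeR adjusted p = 0.883). The feedback inhibitors Spred1 and Dusp5 had log2 fold changes of 0.25 and 0.94 (edgeR adjusted p = 0.811 and 0.815), and the transducer Pik3r1 had -0.29 (edgeR adjusted p = 0.844).

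The genes most like each member were ranked by the Pearson r of log2 CPM over the 8 libraries, among all tested genes. Among the closest to Fgf10 were Hsd17b10 and Hacd2 (both 0.97), and Fgf1 was closest to Tns3 (0.97), Cspg4 and Arhgef10 (both 0.96). Fgf2 was closest to Gm45799 (0.94), Stac2 (0.93) and Zfp524 (0.92), and Fgf7 to Acat1 (0.97), Mum1 (0.96) and Immp2l (0.95). Fgfr1 was closest to Zmynd11 (0.96), Dis3l and Mfsd3 (both 0.95), Fgfr2 to Lpar1 (0.99), Bud23 and Hlf (both 0.97), and Fgfr3 to Ccdc60 (0.96), Kdm1b and Il1r1 (both 0.94). Fgfrl1 was closest to Memo1 (0.95), Plagl1 and Fam84a (both 0.94), and Klb to Tango6 (0.98), Med13 (0.97) and Phpt1 (0.95). With 8 libraries and 12480 genes such values describe these libraries only, whose depth and tissue makeup all genes share. Among the members themselves, r ran from -0.79 to 0.66, the latter for Fgf2 with Fgfr1, and Fgfr2 with Fgfr3 had 0.57.

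The libraries held 1538427 to 3053565 estimated counts each, and the members 4 to 622.3 each. Cyp19a1, the targeted aromatase gene, had 1 to 5.02 estimated counts in the control and 0 to 4 in the knockout libraries, so the deletion could not be checked at this depth. Over all genes, 21 passed the adjusted threshold.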

How the data were processed

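RNA from 8 samples of epididymal mouse fat was sequenced by BRB-seq, a 3′-end method primed with oligo-dT, with 10 PCR cycles and 51-base reads, per the labels' protocols. The authors deposited estimated counts per gene, not normalized; of the values above 0, 59.6% were whole. Salmon and GRCm38 are named in the submitters' processing notes; the annotation, strand setting and any molecular identifiers are not given in the sources used here. Identifiers were matched without version to GENCODE M21 (34652 of 34866).

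Columns were assigned to samples by their description labels. Counts were rounded and tested with edgeR 4.0.16 (R 4.3.3): TMM, filterByExpr, the robust quasi-likelihood F test on genotype alone, and Benjamini-Hochberg adjustment over all 12480 genes. Rounding aside, the test is the planned one. Intervals are at 95%, from the fit's SE and degrees of freedom. CPM used unrounded counts. The test was run on simulated data first. Replicate pairs differed by a chi-square of 4.48 to 9.4 per degree of freedom, so none looked like a repeated deposit of 1 library.

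The members, gene lists and tests were chosen with earlier results of these data known. Genes named are the 9 members, Cyp19a1, Fgf21, Fgf23, Kl, per list up to 4 genes with an unadjusted p under 0.05 or otherwise the 2 with the smallest p, and the 3 genes most like each member; 2 genes under this rule are not reported here. Other genes named are markers, or were chosen after their values were seen. Alternatives were RLE factors, no low-count filter, DESeq2 1.42.0, a replicate block, and each library left out.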

Additional observations from a re-analysis of the deposited data

Results flagged for a closer look

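Single libraries that stood apart within their genotype were sought with Dixon's ratio of gap to range at its 95% critical value for 4 values. Among 70 sets of 4 values, 5 were beyond it; about 1 in 20, or 3.5, would be by chance.

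Control replicate 1 had 84.6 CPM of Fgf10, and the other controls 54.5 to 58.3 CPM. That library also had the highest adipocyte marker sum, 50579 CPM. Control replicate 4 had 16.7 CPM of Fgfr4, and the other controls 4.93 to 6.69 CPM. Dusp5, an ERK phosphatase, was at 4.49 CPM in the same library against 2.45 to 2.69 CPM, which is 7 counts against 6 to 7. The skeletal muscle marker sum was 52.6 CPM in that library against 79.8 to 82.1 CPM. Fgf13 was at 34.6 CPM in knockout replicate 4 against 5.41 to 7.05 CPM in the other knockout libraries, and the sign of its difference rests on that library.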

How the results depend on the processing

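No member passed the adjusted threshold or had an unadjusted p under 0.05 in any of the 12 alternatives run; the smallest unadjusted p was 0.0534 and the smallest adjusted p 0.785. Of 108 member fold changes under alternatives, 96 kept their direction, and 6 members kept it throughout. Fgf1, Fgfr2 and Fgfrl1 did not, with log2 fold changes near 0. Fgf1 was -0.001 with DESeq2 and -0.032 with the replicate block, and -0.152 to 0.17 with 1 library left out. Fgfr2 was 0.031 with the replicate block and -0.255 to 0.415 with 1 library left out, the highest value being without control replicate 4. Fgfrl1 ranged from -0.164 to 0.019, Fgf13 from -0.731 to 0.963 and Fgfr4 from -1.024 to 0.042 with 1 library left out. The count of list genes with an unadjusted p under 0.05 was 4 with all libraries. It was 3 with DESeq2, 3 with the replicate block and 6 without the low-count filter. With 1 library left out it ranged from 4 to 8: 8 without control replicate 2, 7 without control replicate 3 and 8 without control replicate 4. Egr2 stayed under 0.05 only with RLE factors, without control replicate 4 and without knockout replicate 2. No list gene passed the adjusted threshold in any alternative. Over all genes, 58 passed without the low-count filter, 55 with DESeq2, 6 with the replicate block and 4 to 43 with 1 library left out (4 without control replicate 2, 43 without control replicate 4), against 21. The cause of these changes was not tested. Deviations of same-numbered libraries correlated at 0.25, -0.06, -0.01 and -0.24 for replicates 1 to 4. Only for replicate 1 was the control library closest to the knockout library of its own number. So few libraries cannot tell whether same-numbered libraries were paired. No member was called with or without the block. Fgf7 had the fewest counts of the members, 4 to 16 per library, and the largest SE, 0.47. The parts of depth and of spread between libraries in that SE were not tested.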

Other observations

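Other genes of the lists, chosen here after their values were seen, had their highest value in control replicate 4 as Fgfr2 did. Ncam1, an adhesion molecule that can bind FGF receptors, was at 3.84, 7.67, 5.44 and 20.5 CPM in controls 1 to 4 and at 2.77, 9.72, 10.2 and 6.93 CPM in knockouts 1 to 4. Flrt1, a membrane protein that interacts with FGF receptors, was at 4.34, 5.15, 1.91 and 12.8 CPM in controls 1 to 4 and at 1.56, 4.52, 6.83 and 2.65 CPM in knockouts 1 to 4. For both, knockout replicate 3 was the next highest of the 8 libraries. Gpc1, a glypican that carries heparan sulfate, was lowest in control replicate 4, at 1.48 CPM against 15.8 to 49.4 CPM in the other 7 libraries.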
